A study of Mus musculus with 3 samples.

Results

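The 10 immediate early genes described here are Fos, Fosb, Jun, Junb, Jund, Egr1, Atf3, Dusp1, Ier2 and Klf6. They were listed by name and found by symbol, 1 row each, among the 31053 genes of the deposited matrices. Epithelium of the small intestine of wildtype (WT) C57BL/6N male mice aged 12 weeks was profiled by single-cell RNA sequencing in 3 libraries, 1 each of duodenum, jejunum and ileum. Cells of 3 mice, which all shared genotype, sex and age, were pooled, and the sources used here do not say whether the 3 libraries came from the same animals. No treatment is given in the labels, and the mice ate normal chow, per the methods. Cells were detached in a calcium-free EDTA solution, sorted as live single cells by exclusion of propidium iodide, and no cell type was gated. Since each segment is 1 library of pooled animals, differences between segments have no replicate test, and the intervals given for them cover counting error only. The p-values given for other comparisons rest on how far a difference between groups varied from library to library. That may not be how far it varies between animals.

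Immediate early genes are transcribed within minutes of a stimulus from factors already present in the cell, and their short-lived RNAs then fall again. Fos and Fosb pair with Jun, Junb or Jund to form AP-1, a transcription factor that binds its sites as a dimer. Egr1 is a zinc finger factor and Atf3 a stress-responsive factor of the ATF/CREB family, while Klf6 is a Krüppel-like factor. Dusp1 is a phosphatase that shuts off MAP kinases, and Ier2 encodes a small nuclear protein. The same genes are known to rise when tissues are taken apart, and no sample without dissociation was analysed here, so RNA present in the gut and RNA made during isolation cannot be told apart.

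The genes lie apart in the genome (GRCm38, GENCODE M21). Fos spans chr12:85473890-85477273 on the plus strand, Fosb chr7:19302696-19310051 on the minus strand and Jun chr4:95049034-95052222 on the minus strand. On chromosome 8, Junb lies at chr8:84974484-84978718 and Ier2 at chr8:84661331-84662852, both on the minus strand, and Jund at chr8:70698949-70700616 on the plus strand. Atf3 spans chr1:191170296-191218039 and Dusp1 chr17:26505590-26562128, both on the minus strand, and Klf6 spans chr13:5861482-5870394 on the plus strand. Reads came from the 3′ ends of transcripts, so levels carry no information on start sites.

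RefSeq promoter windows of GRCm38.p6, from 250 bases before to 50 bases after the start site, were found for 8 of the 10 genes. The 5 letters TGACG, the core of the cAMP response element, or the complement CGTCA stood in 5 of the 8 windows, against 20.8% of all 32851 windows. The 5 windows that hold the letters are shown, and those of Jun, Jund and Klf6 hold none. RefSeq start sites need not be the gene starts given above. The Jund window, chr8:70697489-70697788, ends before the gene start given above, chr8:70698949, so the bases next to that start were not searched. The windows of Atf3 and Dusp1 lie inside the spans given above. Each run is 150 bases and ends at the base before the start site, read on the gene's own strand, with the letters in capitals.

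Fos, chr12:85473740-85473889, plus strand: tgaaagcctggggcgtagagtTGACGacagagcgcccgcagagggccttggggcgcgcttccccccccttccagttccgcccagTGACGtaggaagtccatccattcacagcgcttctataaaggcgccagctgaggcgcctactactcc

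Fosb, chr7:19310046-19310195, minus strand: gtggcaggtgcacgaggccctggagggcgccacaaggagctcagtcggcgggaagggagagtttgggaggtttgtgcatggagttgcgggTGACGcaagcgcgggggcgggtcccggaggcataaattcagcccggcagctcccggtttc

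Junb, chr8:84978749-84978898, minus strand: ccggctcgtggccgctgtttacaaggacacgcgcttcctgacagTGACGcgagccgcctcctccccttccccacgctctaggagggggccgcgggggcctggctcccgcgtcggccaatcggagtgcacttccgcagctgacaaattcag

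Atf3, chr1:191183334-191183483, minus strand: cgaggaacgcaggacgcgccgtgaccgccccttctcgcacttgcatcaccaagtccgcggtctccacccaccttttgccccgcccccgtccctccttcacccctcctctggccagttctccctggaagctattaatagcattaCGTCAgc

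Dusp1, chr17:26508473-26508622, minus strand: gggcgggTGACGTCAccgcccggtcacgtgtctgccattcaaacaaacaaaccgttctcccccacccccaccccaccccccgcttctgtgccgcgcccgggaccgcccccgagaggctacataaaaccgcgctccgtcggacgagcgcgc

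The Dusp1 window was the only one of the 8 with the full palindrome TGACGTCA, in which the 5 letters and their complement overlap, and 1.79% of all windows held it. Another match in Dusp1 began 191 bases before the start site, outside the stretch shown. Neither the AP-1 letters TGAGTCA or their complement TGACTCA, present in 5.2% of all windows, nor a CArG box, the site of serum response factor, present in 1.63%, stood in any of the 8. These are matches of letters on both strands and not measured sites, and the windows end 250 bases before the start.

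The libraries held 9501, 8139 and 9595 barcodes in the duodenum, jejunum and ileum, with 78074516 to 98518847 UMIs each. After filters on UMIs, genes and a mitochondrial share of at most 40%, 16686 cells were kept, and the 10 genes had 135791, 247251 and 338788 UMIs in them. The ileum stood apart, with a median mitochondrial share of 11.1% against 27.1% and 27.2%, and a median of 5536 UMIs per cell against 12424 and 11737. Pairs of libraries shared 20 to 28 barcodes, of which 4 to 12 were kept. Clusters were made without the 10 genes and named from marker lists, so that every class is enterocyte-like, goblet-like and so on, although the suffix is left out. Enterocytes, the absorptive cells, made up 63.4% of the kept cells, and 8.79% stayed unnamed.

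A level below is the number of UMIs of a gene per 10000 non-mitochondrial UMIs, summed over the cells of a class, and series of values follow the order duodenum, jejunum, ileum. Among classes with at least 10 cells in a library, and summed over the 10 genes, dendritic cells stood highest in the duodenum and jejunum, at 196 and 161, and reached 111 in the ileum, where macrophages and monocytes were at 141. Tuft cells stood low, at 17.9, 34.0 and 39.5, and were the lowest such epithelial class in the duodenum and the ileum, while early enterocytes (33.4) were lowest in the jejunum. As a ratio of the highest to the lowest library, goblet cells ranged most widely, from 27.3 in the duodenum to 84.5 and 105. Enteroendocrine cells (EECs) ranged from 30.8 to 67.9 and 108. T cells varied less between libraries, at 34.6, 39.2 and 40.1.

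**Figure D1:**
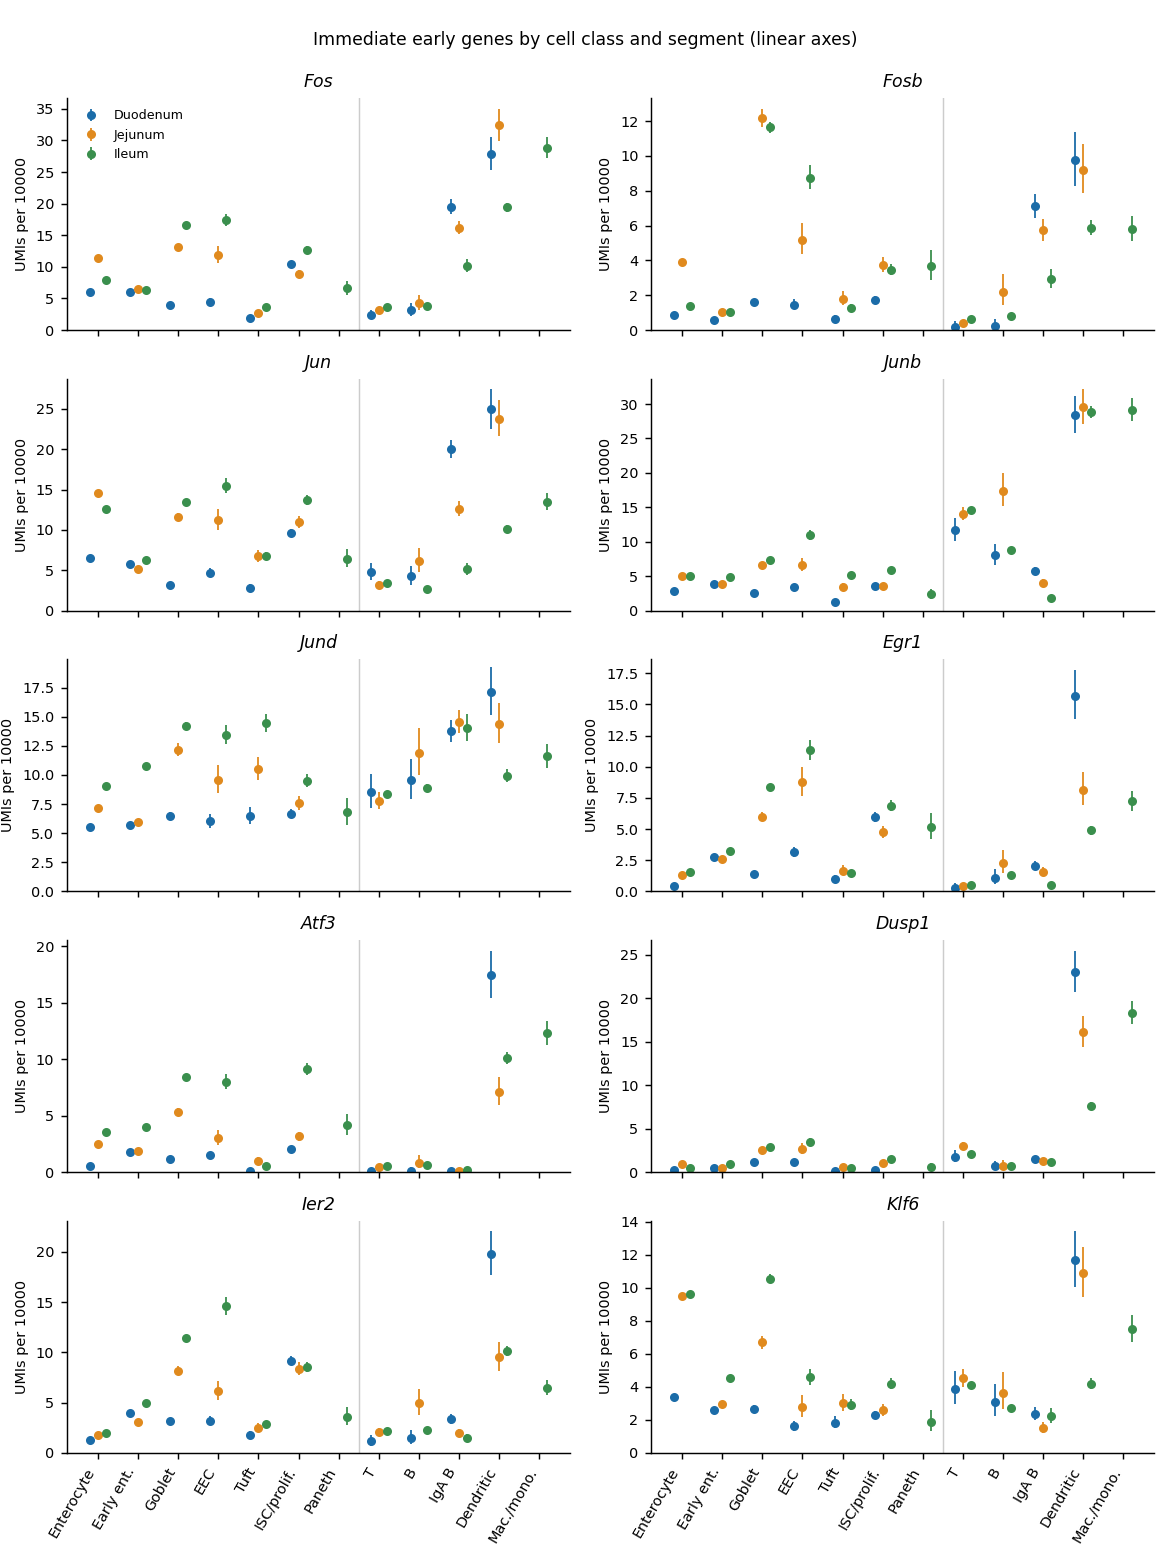
Level of each of the 10 genes (UMIs per 10000 non-mitochondrial UMIs, linear axis) in each cell class, with 1 point per library of at least 10 cells and bars for 95% counting intervals. Epithelial classes stand left of the grey line and immune classes right of it. Junb was higher in T cells (11.7 to 14.6) than in enterocytes (2.90 to 5.08), and Fosb was lower in T cells (0.181 to 0.619) than in enterocytes (0.880 to 3.92).

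In enterocytes the level in the jejunum stood above that in the duodenum for all 10 genes. Jun was at 6.5, 14.6 and 12.6 per 10000, and Fos at 5.99, 11.4 and 7.87. Klf6 was at 3.41, 9.50 and 9.61 and Jund, the least inducible of the Jun genes, at 5.56, 7.16 and 9.01. These 4 genes thus had their lowest value in the duodenum and differed in whether the jejunum or the ileum was highest.

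Junb was at 2.90, 5.02 and 5.08 per 10000, with jejunum and ileum close together. Fosb peaked in the jejunum, at 0.880, 3.92 and 1.39, and so did Dusp1, at 0.235, 0.925 and 0.514. Atf3 was higher at each step down the gut, at 0.524, 2.53 and 3.52, and so were Egr1, at 0.400, 1.31 and 1.52, and Ier2, at 1.30, 1.81 and 2.02. Summed over the 10 genes the jejunum was 2.10-fold above the duodenum (95% counting interval 2.08 to 2.12) and the ileum 1.92-fold (1.90 to 1.94).

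The step from duodenum to ileum was present in most epithelial classes and smaller in lymphocytes. The ileum was 3.85-fold above the duodenum in goblet cells (3.75 to 3.95), 3.51-fold in EECs (3.35 to 3.68) and 2.21-fold in tuft cells (2.06 to 2.38). It was 1.46-fold above it in ISC/proliferating cells (1.41 to 1.5), the stem and dividing cells of the crypt, and 1.39-fold in early enterocytes (1.37 to 1.42). T cells gave 1.16-fold (1.07 to 1.26) and B cells 1.03-fold (0.934 to 1.14), while IgA B cells, the antibody-secreting class, and dendritic cells went the other way, at 0.524 and 0.568. Within enterocytes of at most 20% mitochondrial UMIs the ileum was 2.37-fold above the duodenum, and it was 1.35-fold above it in those over 40%. None of these ratios has a test between segments.

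Among single enterocytes the 10 genes were unevenly spread, most of all in the duodenum. There the summed level per cell had a median of 22.4 per 10000, a 90th percentile of 75.0 and a 99th percentile of 128. In the jejunum the median was 64.3 and the 90th percentile 102, and in the ileum they were 49.4 and 88.5. The 90th percentiles thus lay closer together across libraries than the medians did.

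Classes were then compared with enterocytes by edgeR's quasi-likelihood test on sums per library and class, blocked on the library, with p-values adjusted after Benjamini and Hochberg over all 12750 genes tested. All 10 genes passed the filter on low counts in every comparison. TMM scaling sets the fitted changes relative to the bulk of genes: medians over all genes were -0.18 to -0.06 on the log2 scale for the 7 classes with it, and -0.32 to 0.53 with library size alone. A fitted change can therefore differ from the ratio of levels per 10000, and calls that scaling alone ends are named in each case.

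**Figure D2:**
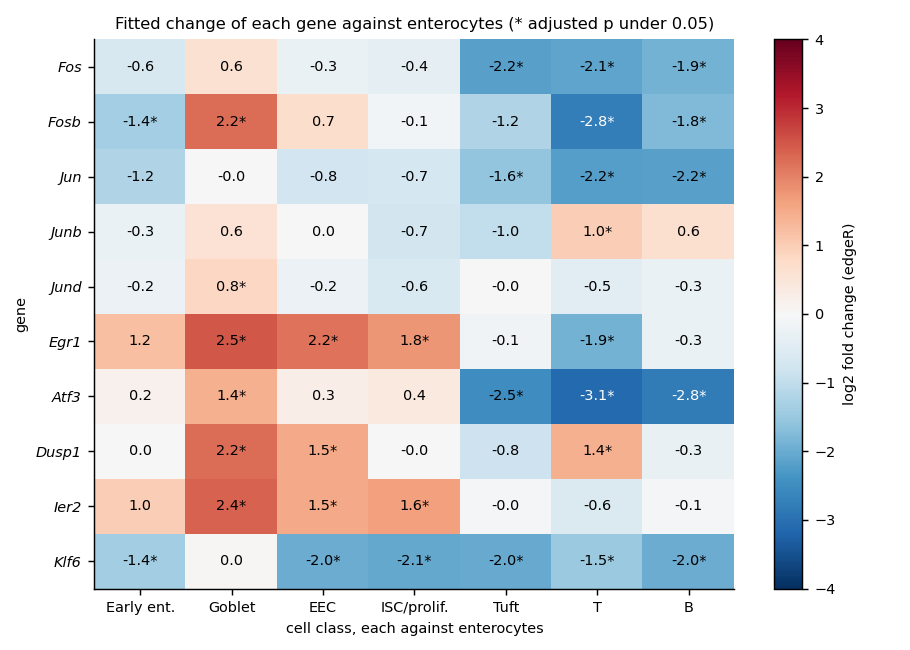
Fitted log2 fold change (edgeR, TMM scaling) of each of the 10 genes in 7 cell classes, each against enterocytes, with 3 libraries per class. Red is higher and blue lower than enterocytes, and a star marks an adjusted p under 0.05. Goblet cells hold 6 of the higher calls and T cells 6 of the lower ones.

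Goblet cells, the mucus producers, had more RNA of most of these genes than enterocytes. Higher levels passed the test for 6 of the 10 genes, where 37.4% of all genes passed in either direction, 17.9% higher and 19.5% lower. Ier2 was at 3.20, 8.16 and 11.5 per 10000, against 1.30, 1.81 and 2.02 in enterocytes, and its log2 change was 2.36 ± 0.46 (SE; edgeR adjusted p = 0.000149). Dusp1 was at 1.13, 2.52 and 2.88, with a change of 2.24 ± 0.45 (adjusted p = 0.000203). For both genes every goblet sum lay above every enterocyte sum.

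Egr1 was at 1.38, 5.99 and 8.37 per 10000 in goblet cells, and its log2 change was 2.49 ± 0.55 (edgeR adjusted p = 0.000584). Fosb was at 1.62, 12.2 and 11.6, which gave 2.24 ± 0.53 (adjusted p = 0.00126). Both were higher than in enterocytes in 3 of 3 libraries, with ranges that overlapped, the duodenum being low in both classes. Atf3, at 1.2, 5.34 and 8.41, and Jund, at 6.45, 12.2 and 14.2, passed more narrowly, with changes of 1.41 ± 0.52 (adjusted p = 0.0347) and 0.84 ± 0.28 (adjusted p = 0.0199). Fos, Jun, Junb and Klf6 did not pass, with Fos at 3.94, 13.1 and 16.7 below enterocytes in the duodenum only and Jun at 3.18, 11.6 and 13.5 below them in the duodenum and jejunum.

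Of the 35 other immediate early and early response genes, 9 were higher in goblet cells and 2 lower. Klf2, a shear-responsive Krüppel-like factor, was among the higher ones, at 5.84 ± 0.76 (edgeR adjusted p = 4.94e-07), with Cyr61 at 3.63 ± 0.48 and Gadd45b, a growth arrest gene, at 3.59 ± 0.48, while Ier5 was lower at -1.72 ± 0.29 and Fosl2, a Fos relative, at -1.08 ± 0.29. Of the 12 heat shock genes 3 were higher and 1 lower. The 13 enterocyte markers reached 7.73% to 9.89% of their enterocyte level in goblet cells. Higher calls made up 47.9% of all called genes, and 32.8% without TMM. The nuclear RNAs Malat1 and Neat1 did not pass here. The Atf3 call was lost with DESeq2 (adjusted p = 0.0822). With edgeR it was lost without TMM (adjusted p = 0.0706), without integration of the libraries (0.161), without the library block (0.194), without the jejunum (0.098) and without the ileum (0.0757). The Jund call was lost without TMM (edgeR adjusted p = 0.106), without the filter (0.0595), without integration (0.171), without the block (0.0616) and without the jejunum (0.273).

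EECs, the hormone-secreting cells, had higher Egr1, Dusp1 and Ier2 and lower Klf6 than enterocytes. These were 3 higher and 1 lower of 10, where 53.9% of all genes passed, 26.7% higher and 27.2% lower, so that the share is close to or under the background. Egr1 was at 3.13, 8.74 and 11.3 per 10000, and its log2 change was 2.18 ± 0.55 (edgeR adjusted p = 0.00129). Dusp1 was at 1.2, 2.69 and 3.42 (1.5 ± 0.45, adjusted p = 0.00591) and Ier2 at 3.20, 6.13 and 14.6 (1.51 ± 0.45, adjusted p = 0.00604). Klf6 was at 1.59, 2.76 and 4.57, below enterocytes in every library, with a change of -1.99 ± 0.40 (adjusted p = 0.000123).

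The sums held 53, 24 and 94 EECs. The other list gave 11 higher and 11 lower of 35, near the 26.7% higher and 27.2% lower of all genes. It was led by Nr4a2 (5.31 ± 0.47), Arc (7.43 ± 0.66) and Nr4a1 (6.04 ± 0.67) on the higher side and Ier5 (-3.38 ± 0.34), Mcl1 (-2.03 ± 0.24) and Fosl2 (-2.26 ± 0.32) on the lower. Nr4a1 and Nr4a2 are inducible orphan nuclear receptors, and Arc is best known from neurons. Of the 12 heat shock genes 6 were higher, Hsp90ab1 (2.55 ± 0.23) and Hsph1 (3.34 ± 0.32) among them. Higher calls were 49.5% of all called genes, and 71.6% without TMM, where Fosb also passed (1.36, edgeR adjusted p = 0.0299). Neat1 was lower (-1.09 ± 0.34) and Malat1 did not pass, and the part of such nuclear RNAs in the result was not tested. The Ier2 call was lost without the jejunum (adjusted p = 0.0538).

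ISC/proliferating cells had higher Egr1 and Ier2 and lower Klf6, that is 2 higher and 1 lower of 10, below the 62.8% of all genes that passed (29.4% higher, 33.4% lower). Egr1 was at 5.97, 4.76 and 6.85 per 10000 and Ier2 at 9.18, 8.35 and 8.57. Neither rose at each step down the gut as it did in enterocytes, and both lay above every enterocyte sum. Their log2 changes were 1.78 ± 0.54 (edgeR adjusted p = 0.00563) and 1.64 ± 0.45 (adjusted p = 0.00246). Klf6, at 2.27, 2.58 and 4.19, changed by -2.05 ± 0.40 (adjusted p = 5.68e-05).

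The higher members of the other list in these cells included Myc, a growth factor target of dividing cells, at 6.95 ± 0.55 (edgeR adjusted p = 3.01e-11), and Cyr61 and Nr4a1, among 11 higher and 16 lower of 35. Dusp6 (-4.54 ± 0.41), Klf4 (-3.95 ± 0.38), a factor of differentiated epithelium, and Fosl2 (-2.65 ± 0.31) led the lower ones. Heat shock genes were higher for 6 of 12, with Hspd1 at 4.77 ± 0.31. Malat1 (-3.03 ± 0.34) and Neat1 (-2.81 ± 0.36) were both lower, and their part in the result was not tested. Higher calls were 46.8% of all called genes, and 67.7% without TMM. Without the duodenum Jun (-1.08, adjusted p = 0.0273), Junb (-1.06, 0.0229) and Jund (-0.88, 0.014) also passed as lower.

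Early enterocytes, which carry genes of the villus base, had lower Klf6 and Fosb, 2 of 10, where 39.1% of all genes passed (19.1% higher, 20.0% lower). Klf6 was at 2.61, 2.95 and 4.51 per 10000, and its log2 change was -1.40 ± 0.39 (edgeR adjusted p = 0.00481). Fosb was at 0.552, 1.06 and 1.01, with -1.35 ± 0.52 (adjusted p = 0.0399). Both were below enterocytes in 3 of 3 libraries. Egr1, at 2.78, 2.57 and 3.23, and Ier2, at 3.95, 3.04 and 4.91, lay above every enterocyte sum but missed the threshold (adjusted p = 0.0713 and 0.084).

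Both lower calls rested on the jejunum: without it the adjusted p was 0.179 for Klf6 and 0.434 for Fosb. The Fosb call also ended without TMM (0.0987), without the library block (0.108) and in cells of at most 20% mitochondrial UMIs (0.0808). Malat1 (-1.68 ± 0.32) and Neat1 (-1.95 ± 0.34) were both lower too, and their part in the result was not tested. Egr1 passed as higher without the ileum (1.62, edgeR adjusted p = 0.0223) and without TMM, where it was not alone, as 2 members were higher. Without the filter on low counts 2 members were higher as well. Jun (-1.56, edgeR adjusted p = 0.00519) and Fos (-0.91, 0.0423) passed as lower without the duodenum. Of the other list 5 were higher, with Myc (2.32 ± 0.61), Egr2 (2.16 ± 0.66) and Gadd45b (1.47 ± 0.45), and 8 lower, with Klf4 (-3.39 ± 0.37), Dusp6 (-2.66 ± 0.33) and Fosl2 (-2.06 ± 0.30). Of 12 heat shock genes 7 were higher, led by Hspd1 (3.22 ± 0.29) and Hspe1 (3.43 ± 0.33), partner chaperonins of mitochondria. Higher calls were 48.8% of all called genes, and 64.8% without TMM.

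Tuft cells, the chemosensory cells of the epithelium, had lower Fos, Jun, Atf3 and Klf6, 4 of 10, where 46.1% of all genes passed (21.9% higher, 24.3% lower). Fos was at 1.84, 2.63 and 3.67 per 10000, below every enterocyte sum, with a log2 change of -2.16 ± 0.40 (edgeR adjusted p = 5.88e-05). Atf3 was at 0.0958, 0.978 and 0.507 (-2.50 ± 0.60, adjusted p = 0.00106), Klf6 at 1.82, 3.02 and 2.91 (-2.03 ± 0.40, 0.000124) and Jun at 2.86, 6.73 and 6.75 (-1.58 ± 0.49, 0.0098). In contrast Jund, at 6.48, 10.5 and 14.5, was at or above the enterocyte level per 10000 in each library and did not pass.

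Enterocyte markers reached 14.6% to 18.2% of their enterocyte level in tuft cells. The same percentages of enterocyte Atf3 would give 0.0934, 0.461 and 0.513 per 10000, which is 97.4% and 101% of its level in the duodenum and ileum, a level not above such a background. For Fos they would give 1.07, 2.08 and 1.15, at most 79.1% of its level. Of the other list 2 were higher, Klf2 (2.51 ± 0.75) and Gadd45g (1.54 ± 0.46), and 14 lower, with Fosl2 (-2.65 ± 0.33), Ier5 (-2.45 ± 0.31) and Dusp6 (-2.95 ± 0.39). Of the heat shock genes 6 were higher, with Hsph1 at 3.15 ± 0.32. Neat1 was lower (-1.43 ± 0.34) and Malat1 did not pass, and their part in the result was not tested. Higher calls were 47.4% of all called genes, and 68.5% without TMM. The Jun call ended without TMM and without the jejunum (edgeR adjusted p = 0.0899), Fosb (-1.38, 0.0146) and Dusp1 (-0.97, 0.0485) passed as lower without the duodenum, and Junb (-1.13, 0.0295) without the ileum.

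T cells, which lie between epithelial cells, showed the most divided picture, with higher Junb and Dusp1 and lower Fos, Fosb, Jun, Egr1, Atf3 and Klf6. These were 2 higher and 6 lower of 10, where 62.0% of all genes passed (29.8% higher, 32.1% lower). Junb was at 11.7, 14.1 and 14.6 per 10000, above every enterocyte sum, with a log2 change of 1.00 ± 0.41 (edgeR adjusted p = 0.038). Dusp1 was at 1.75, 3.03 and 2.14, also above every enterocyte sum, with 1.42 ± 0.45 (adjusted p = 0.00775).

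Fos was at 2.36, 3.20 and 3.60 per 10000 in T cells (-2.12 ± 0.40, edgeR adjusted p = 4.66e-05) and Jun at 4.77, 3.20 and 3.40 (-2.21 ± 0.51, 0.000494), both below all enterocyte sums. Fosb was at 0.181, 0.405 and 0.619 (-2.77 ± 0.60, 0.000241), Atf3 at 0.0604, 0.493 and 0.522 (-3.10 ± 0.63, 0.000109) and Egr1 at 0.302, 0.458 and 0.550 (-1.88 ± 0.60, 0.00785). Klf6, at 3.87, 4.50 and 4.11, was not below enterocytes in the duodenum, and its change was -1.48 ± 0.40 (adjusted p = 0.00193).

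Enterocyte markers in T cells were at 22.2%, 6.69% and 11.9% of their enterocyte level, and these shares of enterocyte Atf3 would give 0.116, 0.169 and 0.419 per 10000. Atf3 in duodenal T cells, and Fosb there (0.196 from that share), were no higher than such a background. The duodenal sum held 35 T cells, against 114 and 1096. Of the other list 12 were higher and 17 lower, with Myc (6.56 ± 0.57), Nr4a2 (4.96 ± 0.47) and Batf (7.66 ± 0.70), an AP-1 factor of lymphocytes, against Gadd45a (-2.75 ± 0.31), Klf4 (-3.24 ± 0.38) and Fosl2 (-2.57 ± 0.33). Of 12 heat shock genes 8 were higher, led by Hsph1 (3.41 ± 0.31). Higher calls were 48.1% of all called genes, and 65.4% without TMM. Malat1 (-0.85 ± 0.32) and Neat1 (-2.54 ± 0.36) were both lower, and their part in the result was not tested. The Junb call ended with DESeq2 (adjusted p = 0.0749). With edgeR it ended without the duodenum (0.67, adjusted p = 0.135), without the jejunum (0.161), without integration of the libraries (0.0953), without the library block (0.102) and with cells of any mitochondrial share (0.0917). Klf6 was lost without TMM and without the jejunum (edgeR adjusted p = 0.0579), and Egr1 without TMM, the jejunum (0.0998) or the ileum (0.0574), while Jund (-0.84, 0.0177) passed as lower without the duodenum.

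B cells had lower Fos, Jun, Fosb, Atf3 and Klf6, 5 of 10, where 61.6% of all genes passed (29.1% higher, 32.6% lower). Fos was at 3.15, 4.23 and 3.80 per 10000 (-1.91 ± 0.41, edgeR adjusted p = 0.000191) and Jun at 4.28, 6.18 and 2.65 (-2.16 ± 0.52, 0.000688). Klf6 was at 3.08, 3.64 and 2.70 (-1.98 ± 0.41, 0.000151), Atf3 at 0.0751, 0.846 and 0.624 (-2.79 ± 0.67, 0.000683) and Fosb at 0.225, 2.20 and 0.799 (-1.75 ± 0.59, 0.0119). Each of the 5 was below the enterocyte level in 3 of 3 libraries. Junb, at 8.04, 17.4 and 8.76, lay above all enterocyte sums, but its change of 0.64 ± 0.41 did not pass (adjusted p = 0.187).

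The B cell sums held 40, 24 and 547 cells, and the shares of enterocyte RNA given by the markers, 10.6%, 15.3% and 9.15%, would account for 45.7% to 73.8% of the Atf3 level. Of the other list 11 were higher, with Myc (7.43 ± 0.59), Dusp2 (8.86 ± 0.80), a phosphatase of lymphocytes, and Nr4a1 (6.27 ± 0.70), and 14 lower, with Klf4 (-3.19 ± 0.39), Fosl2 (-2.69 ± 0.36) and Mafk (-2.40 ± 0.37). Of the heat shock genes 5 were higher. Malat1 (-1.07 ± 0.32) and Neat1 (-2.71 ± 0.36) were both lower, and their part in the result was not tested. Higher calls were 47.1% of all called genes, and 63.8% without TMM, where Junb passed (1.40, edgeR adjusted p = 0.00446) and Fosb did not (0.132). Without the ileum Junb passed (1.09, 0.0315) and Atf3 (0.0542) and Fosb (0.0586) did not, and without the jejunum Fosb did not (0.0538).

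Dendritic cells, IgA B cells, macrophages and monocytes and Paneth cells were in no planned comparison and are given as levels. Dendritic cells (18, 22 and 88 cells) had Fos at 27.9, 32.4 and 19.4 per 10000, Junb at 28.4, 29.6 and 28.9 and Dusp1 at 23.0, 16.1 and 7.57. Macrophages and monocytes of the ileum (38 cells) were near them, with Fos at 28.8, Junb at 29.2 and Dusp1 at 18.3. Dusp1 thus stood in every dendritic sum above its highest epithelial value, 3.42 in EECs of the ileum. IgA B cells (38, 32 and 17) had Fos at 19.5, 16.1 and 10.2 but Atf3 at only 0.0982, 0.0662 and 0.145 and Junb at 5.74, 4.00 and 1.83. Paneth cells reached 10 cells in the ileum only, where Egr1 was at 5.2 and Dusp1 at 0.566.

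Position along the villus was approached by a score from 6 genes of the villus tip (Ada, Nt5e, Slc28a2, Krt20, Pmp22, Serpinb1a) against 7 of the lower villus (Reg1, Reg3b, Reg3g, Lypd8, Dmbt1, Nlrp6, Il18), none of them among the 10, and enterocytes of each library were split by it into lower, middle and upper groups of equal size. In the fit with TMM all 10 genes were higher in the upper than in the lower group. Of the 11042 genes tested 55.0% passed, 25.9% higher and 29.1% lower. Without the library block 0 of the 10 were called. As levels per 10000, Fosb, Egr1 and Ier2 ended lower in the upper group of the ileum, with the values given below. As the split requires, Krt20, a keratin of mature enterocytes, went from 8.36 to 43.0 per 10000 in the duodenum, 17.8 to 55.0 in the jejunum and 16.4 to 46.9 in the ileum, and Reg3b, an antibacterial lectin, fell from 64.7 to 3.48, 85.6 to 2.05 and 140 to 3.94.

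Klf6 had the smallest adjusted p. It went from the lower to the upper group, from 1.85 to 6.97 per 10000 in the duodenum, from 5.27 to 14.0 in the jejunum and from 5.04 to 13.2 in the ileum, a log2 change of 1.99 ± 0.17 (edgeR adjusted p = 6.36e-05). Jun went from 2.41 to 14.7, 9.62 to 19.3 and 7.80 to 16.2 (1.99 ± 0.26, 0.000306). Atf3 went from 0.219 to 1.24, 1.30 to 3.94 and 2.15 to 4.63 (2.17 ± 0.23, 0.000135). These 3 rose over 2-fold per 10000 in every library, and the middle group lay between the others each time.

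Jund went from 4.23 to 7.50, 6.13 to 8.24 and 8.24 to 9.49 per 10000 (0.90 ± 0.11, edgeR adjusted p = 0.000235) and Junb from 1.70 to 5.00, 4.66 to 5.34 and 4.57 to 5.44 (1.09 ± 0.20, 0.00204). Fos went from 2.17 to 13.2 in the duodenum, a 6.07-fold rise, but from 8.53 to 13.5 and 6.66 to 7.97 in the others (1.61 ± 0.34, 0.00396). Dusp1 went from 0.117 to 0.516, 0.616 to 1.23 and 0.470 to 0.517 (1.51 ± 0.29, 0.00254). In each of these the duodenum held the largest ratio.

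Fosb, Egr1 and Ier2 did not rise per 10000 in the ileum. Fosb went from 0.353 to 1.93 in the duodenum and 2.81 to 5.03 in the jejunum, but from 1.34 to 1.21 in the ileum, and its fitted log2 change was 1.5 ± 0.36 (edgeR adjusted p = 0.00727). Egr1 went from 0.263 to 0.661, 1.18 to 1.5 and 1.56 to 1.40 (0.92 ± 0.20, 0.00439), and Ier2 from 0.802 to 2.21, 1.83 to 1.80 and 2.11 to 1.86 (0.84 ± 0.24, 0.0151). The median of all genes was -0.07 with TMM and -0.48 without it, so that the fitted values of these 3 lie above their level ratios. Without TMM Egr1 (0.50, adjusted p = 0.093) and Ier2 (0.42, 0.21) were not called, and without the jejunum Fosb was not (0.0534).

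**Figure D3:**
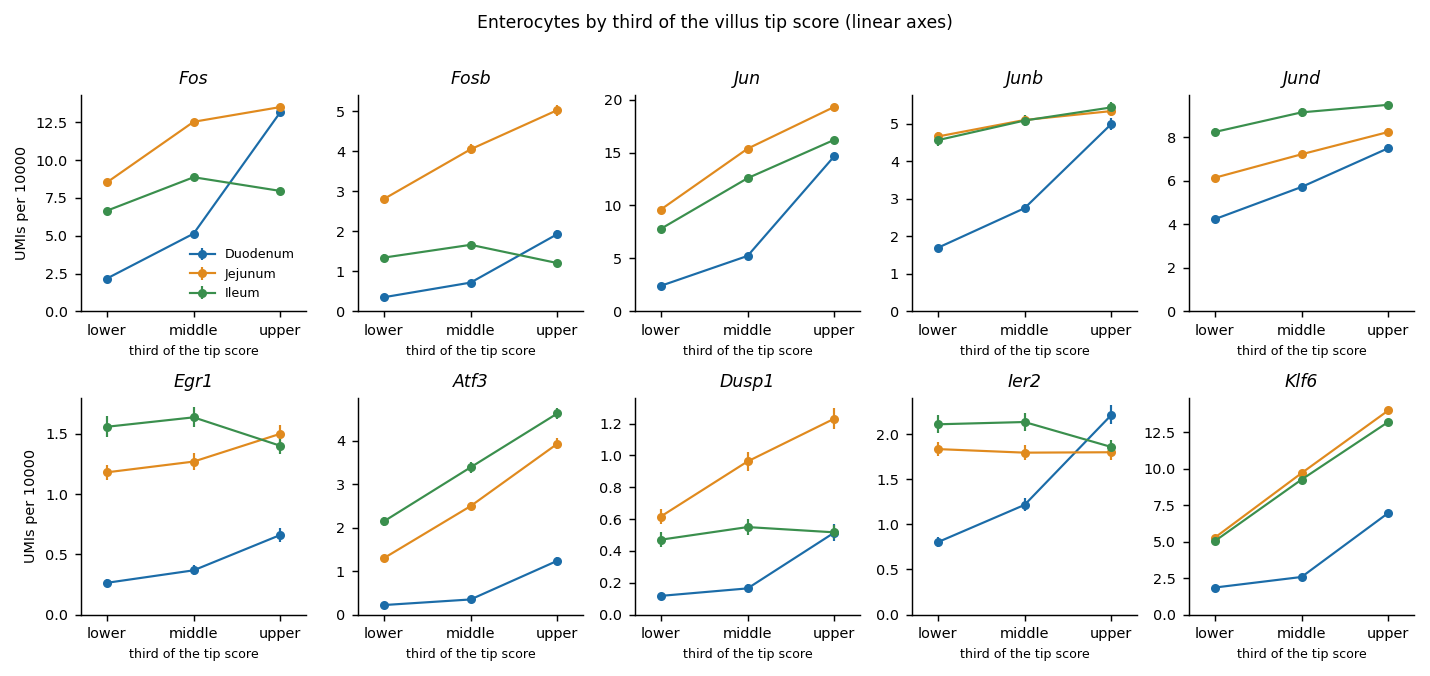
Level of each of the 10 genes (UMIs per 10000 non-mitochondrial UMIs, linear axis) in enterocytes of the lower, middle and upper group by villus tip score, 1 line per library, with 95% counting intervals. Klf6, Jun and Atf3 climb in all 3 libraries, while Fosb, Egr1 and Ier2 climb in the duodenum and end lower than they began in the ileum.

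Summed over the 10 genes, the upper group was 3.82-fold above the lower in the duodenum (3.75 to 3.89), 1.76-fold in the jejunum (1.74 to 1.78) and 1.55-fold in the ileum (1.53 to 1.57). Of 29 other immediate early genes tested 19 were higher, with Mcl1 (1.47 ± 0.11), Klf4 (1.69 ± 0.13) and Mafk (1.38 ± 0.11), and 2 lower, Zfp36l1 (-1.12 ± 0.18) and Gadd45b (-1.31 ± 0.29). Heat shock genes were divided, with Dnajb1 (1.48 ± 0.13), Hspa1a (1.11 ± 0.28) and Hspa1b (0.79 ± 0.28) higher, and 5 lower, with Hspe1 (-1.86 ± 0.18), Hspd1 (-1.17 ± 0.14) and Hsph1 (-1.14 ± 0.23). The nuclear RNAs Malat1 (1.51 ± 0.17) and Neat1 (1.85 ± 0.15) were both higher as well, with a median of 1.68 against 1.51 over the 10 genes, and their part in the result was not tested. The groups also differed in depth, from a median of 14933 to 8956 UMIs per cell in the duodenum, 12561 to 11856 in the jejunum and 5006 to 7802 in the ileum, and in the ileum the median mitochondrial share went from 15.3% to 9.12%, and the part of these in the result was not tested beyond the fit on cells of at most 20%. Higher calls were 47.1% of all called genes, and 20.9% without TMM. Without the library block no member was called, by the same test.

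Enterocytes were last split by their share of mitochondrial UMIs, a common measure of cell damage. Between 20-40% and at most 20%, edgeR called no member and 0 of the 11319 genes tested (0%), with 2 members and 2174 genes at an unadjusted p under 0.05, while DESeq2 called 0 members and, of all genes, 83 higher and 375 lower. Over all genes edgeR called 362 higher and 1218 lower without the ileum, and 520 higher (97.4% of its calls) and 14 lower without TMM. Above 40% against at most 20%, Atf3 alone was lower (-0.57 ± 0.19, edgeR adjusted p = 0.0437), where 34.9% of all genes passed, 16.3% higher and 18.5% lower. That call ended with any library left out (adjusted p = 0.098 without the duodenum, 0.111 without the jejunum, 0.0826 without the ileum), without TMM (0.683) and without the library block (0.719).

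The libraries did not go the same way. From at most 20% through 20-40% to above 40%, the 10 genes together went from 23.1 to 29.0 and 35.8 per 10000 in the duodenum and from 48.2 to 61.4 and 71.1 in the jejunum, but from 54.6 to 43.2 and 48.2 in the ileum. Per 10000 of all UMIs, mitochondrial ones included, they went instead from 19.4 to 15.7 in the duodenum, 40.5 to 31.4 in the jejunum and 48.5 to 18.9 in the ileum between the lowest and the highest share, ratios of 0.808, 0.777 and 0.390. Jun went from 4.96 to 6.93 and 9.63, from 11.1 to 15.7 and 20.5, and from 13.1 to 9.26 and 9.30. Junb ended higher above 40% in each library, from 2.15 to 4.32 in the duodenum, from 3.79 to 8.33 in the jejunum and, by less, from 5.16 to 5.48 in the ileum. Without the ileum Jun (0.53, edgeR adjusted p = 0.00445) and Junb (0.68, 0.000725) were higher above 40%. In that fit 2251 of the 11289 genes tested were higher and 2549 lower, so 2 of 10 was near the share of all genes.

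Ier2 and Egr1 ended higher above 40% than at most 20% in 3 of 3 libraries. Ier2 went from 1.16 to 1.74, 1.56 to 2.78 and 2.03 to 3.03 per 10000, and Egr1 from 0.329 to 0.700, 1.37 to 1.68 and 1.53 to 2.22. Fosb did so too, from 0.667 to 1.09, 3.08 to 4.12 and 1.39 to 2.05, and so did Junb, with the values given above. These rises did not pass the test with TMM, which sets them against the other genes; without it Ier2 (0.67, edgeR adjusted p = 0.00277), Egr1 (0.62, 0.00915), Fosb (0.56, 0.0114) and Junb (0.73, 0.0132) were called higher. Higher calls were then 89.1% of all called genes, against 46.8% with TMM, and the median of all genes was 0.49 against 0.02. Without TMM 4954 of the 11319 genes tested were higher and 606 lower. The share of members called higher was thus not above that of all genes.

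**Figure D4:**
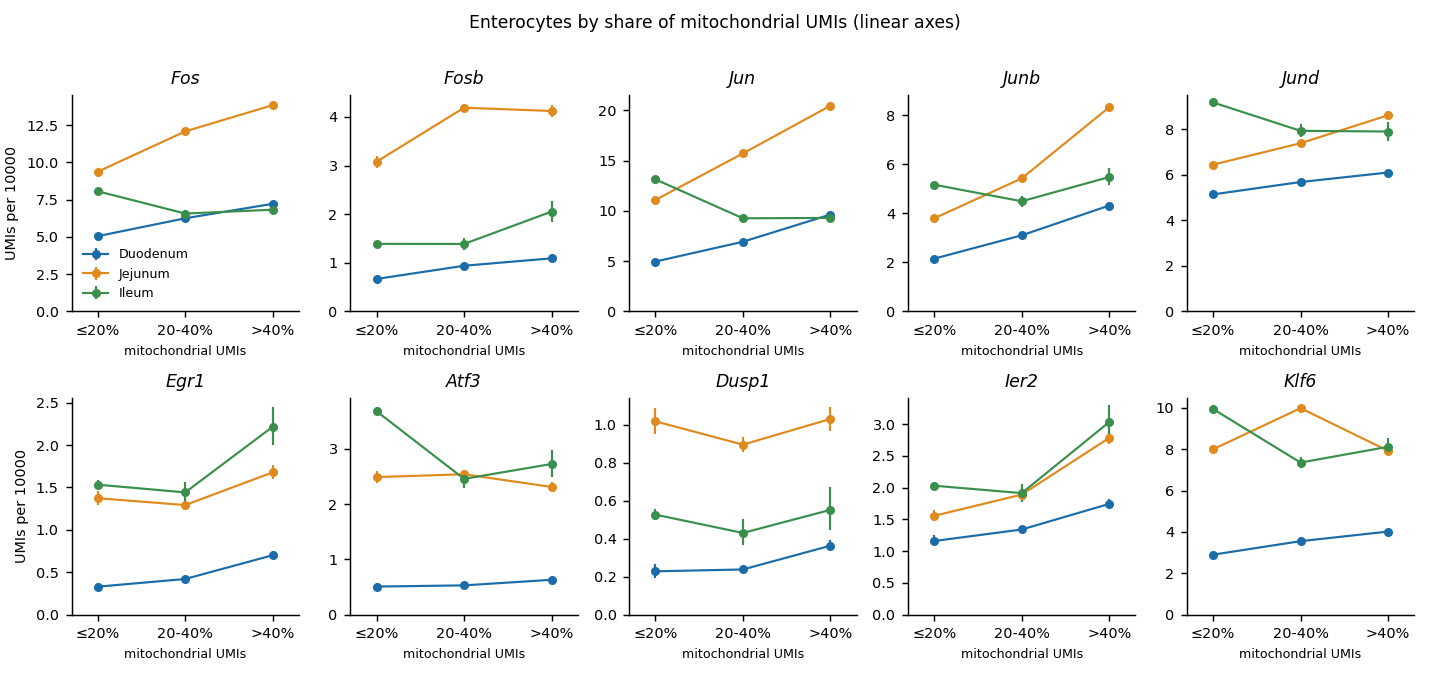
Level of each of the 10 genes (UMIs per 10000 non-mitochondrial UMIs, linear axis) in enterocytes by share of mitochondrial UMIs, 1 line per library, with 95% counting intervals. The duodenum and the jejunum climb for Fos, Jun, Junb and Jund, while the ileum ends lower than it began for Fos, Jun, Jund, Atf3 and Klf6.

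Neither Malat1 nor Neat1, both nuclear RNAs, passed the test above 40%. Malat1 went from 194 to 453 per 10000 in the duodenum and 207 to 386 in the jejunum, but from 425 to 394 in the ileum, and Neat1 from 12.1 to 24.2, 15.8 to 20.6 and 21.2 to 27.8. The 6 tip genes together went from 70.2 to 48.4, 106 to 69.9 and 127 to 39.3, and the 7 lower villus genes from 115 to 55.7, 46.2 to 56.1 and 53.3 to 141. Their part in the result was not tested. Above 40% the other list had 2 higher and 5 lower of 30, not above the 16.3% higher and 18.5% lower of all genes. Among them were Nfkbiz (0.73 ± 0.17) against Btg1 (-0.68 ± 0.18), Rhob (-0.66 ± 0.21) and Maff (-0.71 ± 0.23). Of the 12 heat shock genes 2 were higher, Hspa1b (0.84 ± 0.20) and Hspa1a (0.56 ± 0.20), and 1 was lower, Dnaja1 (-0.47 ± 0.15). The higher share was near the 16.3% of all genes.

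Whether the genes rise in the same cells was examined in enterocytes thinned to 800 UMIs each, so that depth is equal. Cells with and without Fos were not matched for tip score or mitochondrial share, and the part of these in the ratios was not tested. Cells with at least 1 Fos UMI numbered 1087 of 3168 in the duodenum, 1897 of 3333 in the jejunum and 1501 of 4022 in the ileum. The other 9 genes together were 2.44-fold higher in them than in cells without in the duodenum (95% counting interval 2.32 to 2.56), 1.40-fold in the jejunum (1.35 to 1.45) and 1.33-fold in the ileum (1.28 to 1.37). Each of the 9 genes was higher with Fos in all 3 libraries, with intervals above 1.

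Fosb was tied to Fos most closely in the duodenum, at 17.6 UMIs per 100 cells with Fos against 3.56 without, a ratio of 4.94, and less so in the jejunum (1.56) and ileum (2.01). Egr1 gave 3.97, 1.70 and 1.99, Dusp1 3.74, 1.89 and 1.93, and Ier2 3.44, 1.34 and 1.42. Jund had the lowest ratio of the 9 in every library, at 1.47, 1.2 and 1.14. Cells are not replicates, and these ratios describe the 3 libraries and carry no test.

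**Figure D5:**
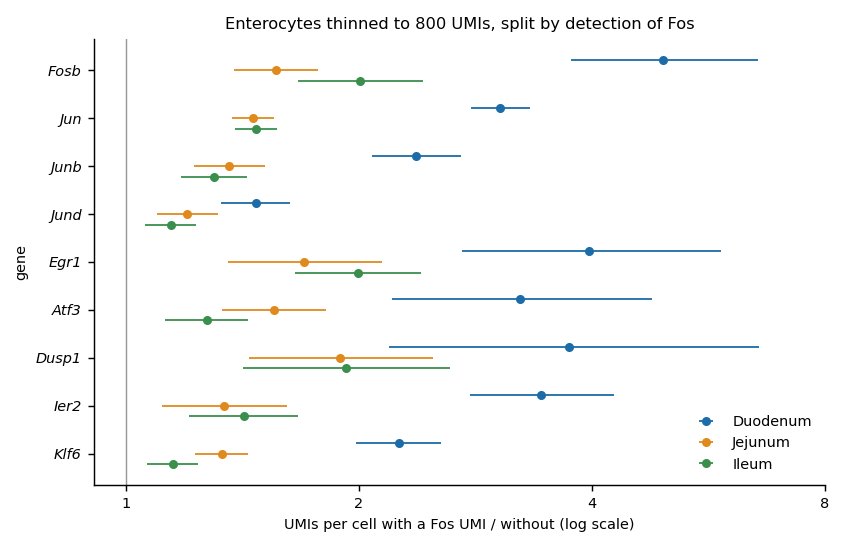
Ratio of UMIs per cell in enterocytes with a Fos UMI to those without (log axis), for the other 9 genes and each library after thinning to 800 UMIs, with 95% counting intervals. All points lie above 1, the duodenum is highest for each gene, and Jund is lowest in each library.

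Across 32 sums of a library and a class, the log2 level of each of 3129 genes was correlated with the log2 summed level of the 10 genes, as a description without a test, since sums of 1 library share their handling. The sum includes the gene itself where that is one of the 10, so high values are built in for Fos (r = 0.898), Jun (0.862) and Dusp1 (0.840). Zfp36 (0.829), which encodes a protein that destabilises RNA, and Btg2 (0.755), Ppp1r15a (0.748) and Nfkbia (0.734) of the other list ranked among the first 10 genes and are not part of the sum. Outside both lists the nearest genes were Csf1r (0.705), Gm26532 (0.701), Csf2ra (0.700), Il1b (0.699), Aif1 (0.692), Cxcl2 (0.692), Lyz2 (0.691) and Apol7c (0.691), several of which mark myeloid cells, the classes with the highest sums.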

How the data were processed

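Single-cell libraries of the duodenum, jejunum and ileum (droplet-based, 3′ end counting) were analysed from the deposited UMI counts per gene and cell, which the authors made with Cell Ranger 3.0.2 on GRCm38 (mm10). The values are raw counts of unique molecules, and they are not normalized. The 10 genes and all gene lists were chosen with earlier results of these data known. By a fixed rule all 10 genes are named. Genes of a list named for a comparison come from the 3 with the smallest adjusted p in each direction, and not all of these are named.

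Cells were kept if they had between 200 and 6000 genes, between 800 and 50000 UMIs and no more than 40% mitochondrial UMIs, and enterocytes of any share were used for the comparison of mitochondrial shares. Cells were clustered with Seurat 5.3.0 (R 4.3.3) on 2000 variable genes, without the 10 genes, the related lists and mitochondrial genes, after integration of the libraries (30 components, resolution 0.8, and 0.5 for mixed clusters). Clusters were named from marker lists by a rule set after the clusters were seen. No doublet caller was run. Counts were summed per library and class (at least 10 cells) and tested with edgeR 4.0.16 (filterByExpr, TMM, quasi-likelihood, library as a block, Benjamini-Hochberg, threshold 0.05), with all class comparisons sharing the same enterocyte sums. The library is the block because sums of 1 library come from the same pooled cells. Each class thus has at most 1 sum per segment. The block takes out differences between libraries, so p-values rest on how differences between groups varied over 3 libraries, which may share animals. That spread was estimated over all sums of a fit. DESeq2 1.42.0, library sizes without TMM, no filter, no block, other mitochondrial limits, other clusterings and each library left out were alternatives.

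Levels carry exact Poisson intervals (95%), which cover counting error only. In the enterocyte comparisons on simulated data, 61% to 71.5% of 200 genes changed by 1 on the log2 scale were recovered. In the class comparisons 1% (tuft and B cells) to 19% (goblet cells) were recovered. False calls, of genes left unchanged, numbered 8 to 17 in the enterocyte comparisons. They numbered 1 (tuft and B cells) to 15 (early enterocytes) in the class comparisons. T cells had 13 false calls beside 8.5% of 200 recovered, and goblet cells 13 beside 19%. Above 40% mitochondrial UMIs 17 false calls stood beside 61% of 200 recovered, and in the tip score groups 8 beside 71%. The share of false calls among simulated calls thus lay above the threshold of the adjusted p in class comparisons and, by less, in enterocyte comparisons. Adjusted p-values of both kinds of comparison may therefore be too small.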

Additional observations from a re-analysis of the deposited data

Results flagged for a closer look

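Opposite directions in the libraries marked 15 values, each a ratio of levels within a library whose 95% counting interval lay on the other side of 1 from that of another library. None of these differences between libraries was tested, since each segment is 1 library, and the ileum also had the lower depth and mitochondrial share.

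Between enterocytes of 20-40% and of at most 20% mitochondrial UMIs the ileum went down where both other libraries went up. The ratio in the ileum was 0.815 for Fos, against 1.24 and 1.29 in the others. It was 0.705 for Jun (1.40 and 1.42 in the others), 0.869 for Junb (1.43 and 1.44), 0.864 for Jund (1.11 and 1.15) and 0.740 for Klf6 (1.23 and 1.25). For the 10 genes summed it was 0.791, against 1.26 and 1.27.

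Above 40% over at most 20% the ileum gave 0.846 for Fos (1.43 and 1.48 in the others), 0.708 for Jun (1.85 and 1.94), 0.861 for Jund (1.19 and 1.34) and 0.882 for the 10 genes summed (1.47 and 1.55). Klf6 was at 0.816 in the ileum and 1.39 in the duodenum. Atf3 differed the other way, with 1.24 in the duodenum against 0.741 and 0.928 in the others. Along the villus the ratio of the upper to the lower group of the tip score in the ileum was 0.898 for Fosb (1.79 and 5.47 in the others), 0.899 for Egr1 (1.27 and 2.51) and 0.881 for Ier2 (2.76 in the duodenum).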

How the results depend on the processing

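Of 43 calls of a gene in a comparison, 21 were kept under every alternative run and 0 reversed. The counts of genes called moved as follows. With cells of at most 20% mitochondrial UMIs, early enterocytes had 1 higher and 1 lower. Without TMM they had 2 higher and 1 lower, B cells 1 higher, and enterocytes above 40% 4 higher and 0 lower. Those 4 were not above the share of all genes, as given above. Without the filter early enterocytes had 2 higher. With DESeq2 ISC/proliferating cells had 2 lower and T cells 1 higher. The same numbers came from cells at any mitochondrial share and from no integration. No integration also gave 7 lower in tuft cells and 2 lower in EECs and named no early enterocytes. In those fits 3087 of the 12907 genes tested were lower in tuft cells and 3418 in EECs. The share of the listed genes called lower was thus above that of all genes in tuft cells and below it in EECs. With no replicate block, that is without pairing sums of the same library, early enterocytes had 1 lower, T cells 1 higher, enterocytes above 40% 0 lower and the upper tip score group 0 higher.

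With 1 library left out, the number higher ranged from 0 to 1 in early enterocytes and B cells, 2 to 3 in EECs, 1 to 2 in T cells, 4 to 6 in goblet cells, 0 to 2 above 40% and 9 to 10 in the upper tip score group. The number lower ranged from 0 to 4 in early enterocytes, 3 to 6 in tuft cells, 1 to 4 in ISC/proliferating cells, 4 to 7 in T cells and 3 to 5 in B cells, and was 0 above 40%. Changes in direction touched uncalled genes: without TMM Jun (0.062), Junb (0.032) and Jund (0.14) in ISC/proliferating cells, Jund (0.21) in T cells and Jun (0.43) above 40%. Above 40%, with 1 library left out, Egr1 ranged from -0.077 (without the duodenum) to 0.26, Fosb from -0.000563 (without the duodenum) to 0.17, Jun from -0.35 to 0.53 (without the ileum) and Junb from -0.031 (without the jejunum) to 0.68.

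Per 10000 of all UMIs, the summed enterocyte level was 20.2, 42.5 and 45.8 in duodenum, jejunum and ileum, and the ratio above 40% over at most 20% was 0.808, 0.777 and 0.390, the first 2 on the other side of 1, since mitochondrial UMIs enter the divisor. Thinned to 2000 UMIs, the ratio of the other 9 genes with over without Fos was 2.94, 2.00 and 1.41. The causes of the other shifts were not tested.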
